A study of Mus musculus with 6 samples.

Results

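Beta cell disallowed genes are genes that most tissues use and that mature beta cells keep nearly silent. The 10 genes described here, Ldha, Slc16a1, Oat, Acot7, Mgst1, Pdgfra, Igfbp4, Cxcl12, Maf and Smad3, were taken from that class by symbol, out of 55421 gene IDs in the count tables. They were read in islets of WT C57BL/6 mice, in 3 libraries given the ligand insB:9-23 and 3 given vehicle. The name insB:9-23 is that of a fragment of the insulin B chain. The sources used here give no age, sex, dose or duration, and leave unsaid whether the animals or their isolated islets received the ligand. Whether the libraries come from separate animals or pools is not stated either, so every p-value measures the spread among these 6 libraries, part of which may be technical. In an islet, disallowed genes can still be read from alpha, stromal, vascular, immune or contaminating exocrine cells, and in bulk RNA fewer cells of a type cannot be told apart from less RNA per cell.

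Beta cells release insulin in proportion to the pyruvate that their mitochondria burn. With little lactate dehydrogenase and little of the monocarboxylate transporter that Slc16a1 encodes, glucose carbon is not diverted to lactate and circulating lactate or pyruvate does not trigger insulin release. In mouse beta cells the miR-29 family is known to repress Slc16a1. The other disallowed genes include metabolic enzymes, a growth factor receptor and secreted proteins typical of stroma, and transcriptional regulators.

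The mature miR-29 sequences are shown because they share the seed that targets Slc16a1. The capitals mark the seed, bases 2 to 8 from the 5′ end. RefSeq sequences (GRCm38.p6) are given 5′ to 3′.
miR-29a-3p: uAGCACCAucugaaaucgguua
miR-29b-3p: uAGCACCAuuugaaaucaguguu
miR-29c-3p: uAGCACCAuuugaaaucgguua
The reverse complement of the seed, TGGTGCT, was looked for on the transcript strand of 3′ UTRs annotated in GENCODE M21. In Slc16a1 it lies 74 bases after the stop codon, within chr3:104655781-104655803 (GRCm38, plus strand), with the match in capitals.
Slc16a1 site: cctctagtctaccagTGGTGCTc
Pdgfra and Igfbp4 each held 2 matches, and the other 7 disallowed genes held 0. Of all 21775 genes with such a UTR, 12.6% held a match, and among genes with a UTR of 0.8 to 1.25 times the length of that of Slc16a1 the share was 24.2%. Matched for length in that way, the share was 27.2% for Pdgfra and 25.1% for Igfbp4. For the 7 genes without a match it ran from 3.3% for Acot7 to 41.6% for Cxcl12. A match describes letters only, and miR-29 itself was not measured in these counts.

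Promoter sequence is shown for Ldha and Slc16a1, the lactate pair of the class. The letters ACGTG are a form of the core of the element that hypoxia-inducible factors bind. They were searched on both strands, so the palindrome CACGTG counts 2 times. Other forms of the core were not searched. Capitals mark the matches in the 250 bases before a RefSeq start site (for Ldha, the first of 2; GRCm38.p6, plus strand), chr7:46845554-46845803 for Ldha and chr3:104638414-104638663 for Slc16a1.
Ldha promoter: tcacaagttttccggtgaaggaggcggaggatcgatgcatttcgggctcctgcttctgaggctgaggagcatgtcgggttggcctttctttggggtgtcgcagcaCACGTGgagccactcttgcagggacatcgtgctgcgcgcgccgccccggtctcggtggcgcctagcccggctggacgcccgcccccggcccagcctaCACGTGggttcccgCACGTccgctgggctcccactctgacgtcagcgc
Slc16a1 promoter: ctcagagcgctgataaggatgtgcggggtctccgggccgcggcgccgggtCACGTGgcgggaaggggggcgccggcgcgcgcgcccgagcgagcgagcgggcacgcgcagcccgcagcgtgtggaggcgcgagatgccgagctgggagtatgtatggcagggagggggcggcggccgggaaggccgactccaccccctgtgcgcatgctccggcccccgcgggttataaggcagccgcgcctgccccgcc
Within 300 bases, which add the first 50 transcribed ones, Ldha held 5 matches at its first start site and 0 at its second (chr7:46846832-46847131), Slc16a1 held 3 and Oat held 1. The other 6 disallowed genes with a promoter entry (9 of 10 had one, Maf did not) held 0. Of 32851 promoters of that length, 19.6% held at least 1 match and 1.7% at least 3.

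The libraries held 52052808 to 58880189 counts each, and 3 counts correspond to 0.0475 to 0.0655 CPM (read counts scaled by TMM-adjusted library size). The islet label was borne out by Ins2, at 65610 to 78100 CPM in insB:9-23 libraries and 60250 to 71120 CPM in vehicle libraries. Mafa, a defining transcription factor of beta cells, had 0 counts in all 6 libraries. It has a single exon, whereas the disallowed genes have 3 to 27 separate exon blocks. Of all counts, 29 acinar markers held 20.5%, 18.1% and 27.7% in insB:9-23 libraries 1 to 3, against 16.4%, 18.0% and 19.2% in vehicle libraries 1 to 3. Another 6 amylase genes, outside that list, held 11.57%, 10.55% and 16.48% in insB:9-23 libraries 1 to 3. In vehicle libraries 1 to 3 they held 9.33%, 10.53% and 10.95%. Both shares were thus highest in insB:9-23 library 3. The 16 beta cell markers held less than the acinar list in every library. Their share was 12.03%, 13.9% and 9.62% in the insB:9-23 libraries, against 13.84%, 12.25% and 12.05% in the vehicle libraries. On the CPM scale 28 of the 29 acinar genes had a log2 fold change above 0, with a median of 0.52. Summed lymphocyte markers stood at 47.5, 163 and 11.3 CPM in insB:9-23 libraries and 42.8, 24.3 and 30.3 CPM in vehicle libraries, highest in insB:9-23 library 2 and lowest in insB:9-23 library 3. Ighm, the most abundant lymphocyte marker, stood at 33.9, 92.4 and 4.22 CPM in the insB:9-23 libraries and 29.8, 12.02 and 16.96 CPM in the vehicle libraries. Summed endothelial markers lay between 467 and 495 CPM in the insB:9-23 libraries and 477 and 538 CPM in the vehicle libraries, pericyte markers between 141 and 171 and between 162 and 173 CPM in the same groups, and the 5 adipocyte markers together reached at most 0.427 CPM. The part of these differences in any result below was not tested beyond the values given.

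Together the 10 disallowed genes held 0.00535%, 0.00787% and 0.00515% of counts in insB:9-23 libraries 1 to 3, against 0.00627%, 0.00572% and 0.00565% in vehicle libraries 1 to 3. Their summed level was 53.4, 75.3 and 64.0 CPM in the insB:9-23 libraries, and 58.0, 53.9 and 55.1 CPM in the vehicle libraries. On both scales the insB:9-23 libraries thus spread over the vehicle range and beyond it. The scales disagree for insB:9-23 library 3, which was lowest of all by share and above every vehicle library in CPM. Its TMM factor, which multiplies the library size before CPM is taken, was 0.8057, against 1.004 to 1.083 in the other libraries.

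Levels of different genes were compared as CPM per kilobase of exon. Ldha and Oat led the class, at 6.64 ± 1.11 and 6.31 ± 0.961 in the insB:9-23 group, against 4.83 ± 0.220 and 5.39 ± 0.354 in the vehicle group (CPM per kilobase, SD, n = 3 each). Their libraries overlapped each other in both groups. A clear step followed, since every library of both genes lay above every library of the next gene in either group. In the insB:9-23 group that next gene was Mgst1, at 1.40 ± 0.368, and no later neighbour in the order (Acot7, Igfbp4, Smad3, Cxcl12, Slc16a1, Maf, Pdgfra) was separated from the one before it. In the vehicle group Smad3 came next at 1.47 ± 0.0802, apart from Acot7, Mgst1, Igfbp4 and Cxcl12, each overlapping its neighbours in that order. Cxcl12, at 0.623 to 0.846, overlapped Igfbp4 but neither Acot7 nor Mgst1. Slc16a1 and Pdgfra followed, and Maf closed the order at 0.0778 ± 0.0501 CPM per kilobase. Among the 17016 tested genes, Ldha lay between the percentiles 66.7 and 78.4 over the 6 libraries and Oat between 68.6 and 77.1, both above the median gene in every library. The other 8 lay below it in every library, Slc16a1 between 15.4 and 27.1, and Pdgfra between 3.2 and 17.1.

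**Figure D1:**
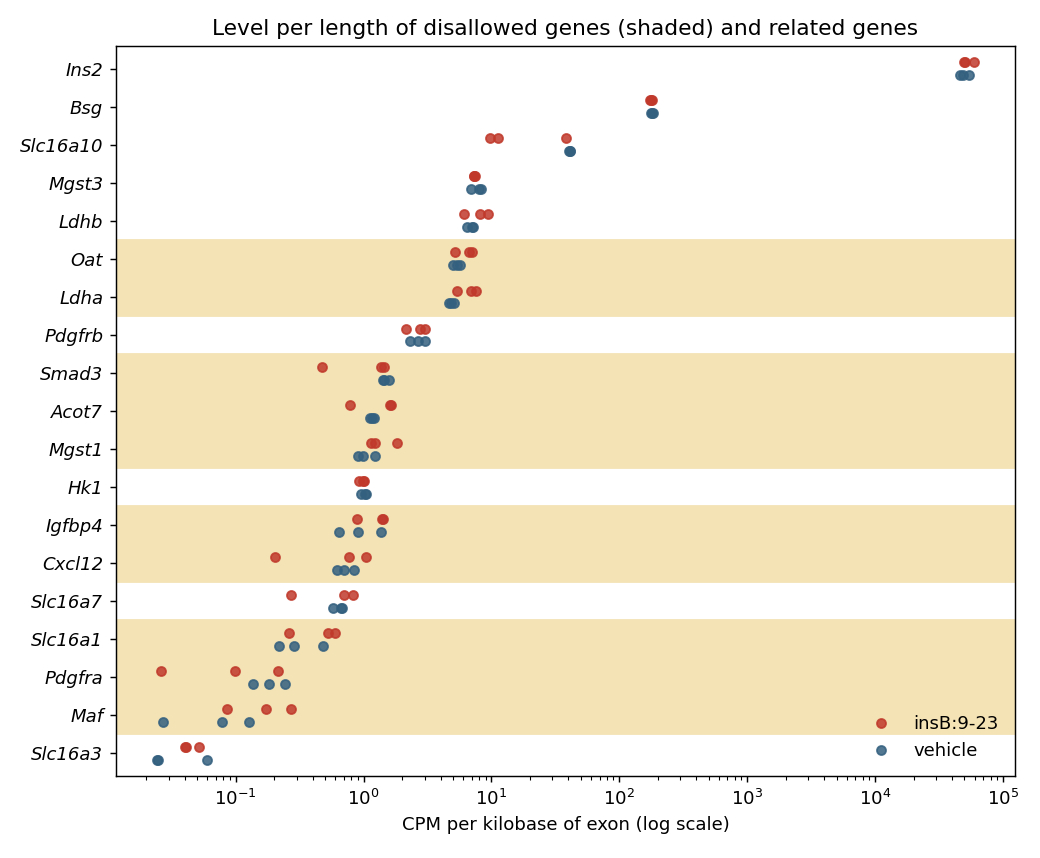
Level per exon length of the disallowed genes (shaded) and of related genes in each library, in CPM per kilobase on a log axis, with insB:9-23 points above vehicle points in each row. Ldha and Oat lie between 4.62 and 7.57, the other 8 disallowed genes at or below 1.82, and Ins2 far above them all.

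Ratios of levels per kilobase were taken within each library. Ins2 exceeded Ldha 8170 ± 1410-fold per kilobase in the insB:9-23 group and 10300 ± 1260-fold in the vehicle group (SD, n = 3 each). Bsg, the chaperone that carries the Slc16a1 protein to the membrane, exceeded Slc16a1 435 ± 199-fold in the insB:9-23 group and 609 ± 219-fold in the vehicle group. Ldha, the muscle-type subunit, stood at 0.867 ± 0.242 of Ldhb, the heart-type subunit, in the insB:9-23 group and 0.700 ± 0.0161 in the vehicle group. The Ldha to Ldhb ratio was above 1 in insB:9-23 library 2, at 1.14, and at most 0.799 in the other 5 libraries. The groups overlapped in these ratios except that of Ins2 to Ldha, whose values were 9330, 8570 and 6610 in the insB:9-23 libraries and 11700, 9500 and 9620 in the vehicle libraries.

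Between the groups no disallowed gene passed the test. All 10 had enough counts to be tested, and edgeR's quasi-likelihood test called 0 of 10 at an adjusted p of 0.05, against 14 of 17016 genes (0.0823%). DESeq2 also called 0 of 10, against 0.685% of the genes it tested, and limma-voom called 0 of 10, against 0.0999%. With edgeR, 1 of 10 (Ldha) had an unadjusted p under 0.05, beside 5.55% of all genes tested. The groups did not overlap in CPM in 1 of 10, again Ldha, beside 13.5% of all genes, and the insB:9-23 libraries were all above in 6.4% of all genes. The fold was above 0 in 7 of 10 disallowed genes, against 51.5% of all genes, and their median log2 fold change was 0.29, against 0.01 over all genes. With 10 genes, these shares are too coarse to be called near the background or apart from it, and no test was made of the list.

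On GRCm38 with the GENCODE M21 annotation, all 10 are protein-coding genes. Ldha (chr7:46841475-46855627, plus strand) and Oat (chr7:132557478-132576398, minus strand) share chromosome 7, and Mgst1 (chr6:138140316-138156755, plus strand) and Cxcl12 (chr6:117168535-117181367, plus strand) share chromosome 6. Slc16a1 lies at chr3:104638668-104658462, Acot7 at chr4:152178134-152271855, Pdgfra at chr5:75152292-75198215 and Igfbp4 at chr11:99041244-99054392, all on the plus strand. Maf lies at chr8:115682942-115707794 and Smad3 at chr9:63646767-63757994, both on the minus strand.

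**Figure D2:**
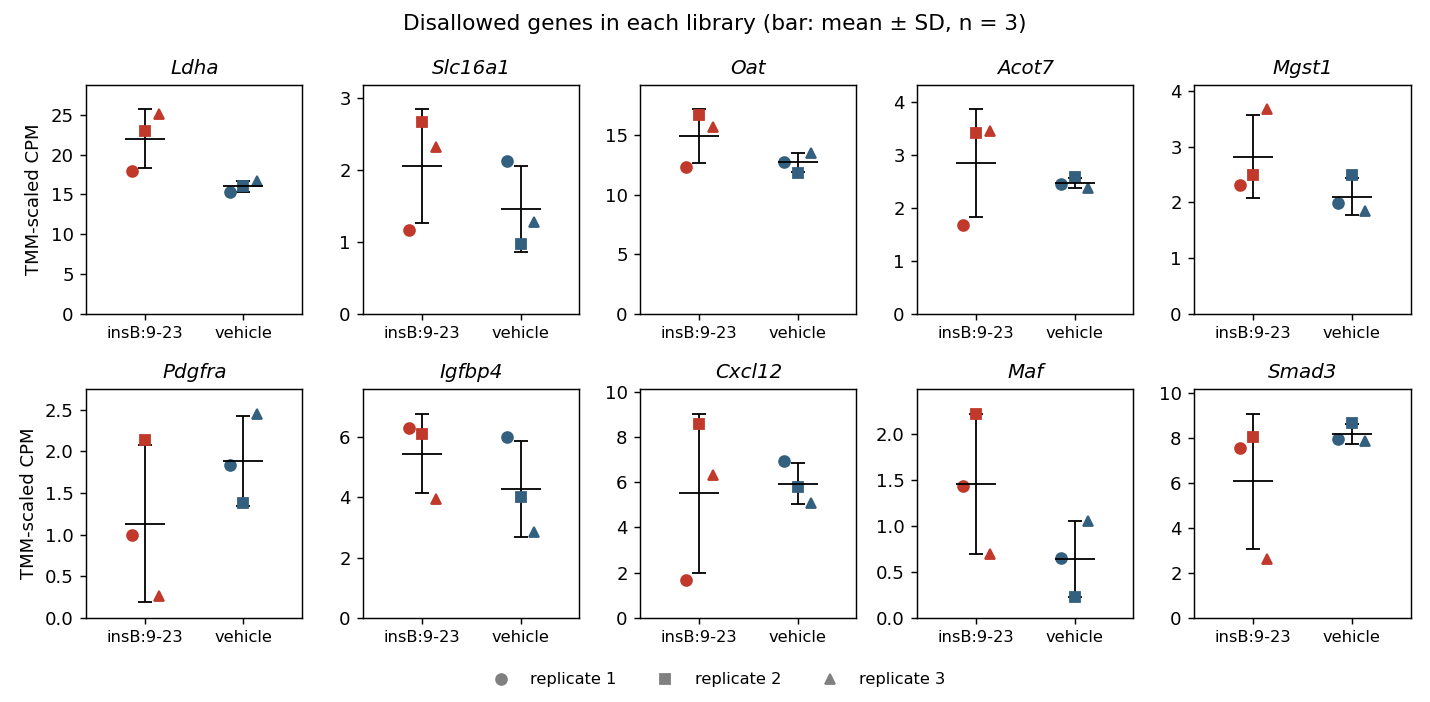
TMM-scaled CPM of each disallowed gene in the 3 insB:9-23 (red, left) and 3 vehicle (blue, right) libraries, with the mean and SD as bars (n = 3) and the replicate number as the symbol. Only in Ldha do the groups not overlap, and Pdgfra, Cxcl12 and Smad3 each have 1 insB:9-23 library far below the rest.

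Ldha encodes the subunit of lactate dehydrogenase that favours making lactate from pyruvate. Its level was 17.9, 23.0 and 25.1 CPM in insB:9-23 libraries 1 to 3, against 15.3, 16.0 and 16.7 CPM in vehicle libraries 1 to 3. Every insB:9-23 library lay above every vehicle library, with the spread wider in the insB:9-23 group. The means were 21.98 ± 3.69 CPM in the insB:9-23 group and 16.0 ± 0.729 CPM in the vehicle group (SD, n = 3 each). The log2 fold change was 0.46 ± 0.14 (SE; edgeR adjusted p = 0.88, unadjusted p = 0.0185). The highest Ldha value in CPM came from insB:9-23 library 3, which also had the highest acinar share. That rank rests on the TMM factor of 0.8057 for library 3. Before it is applied, library 2 ranked above library 3, with 1293 Ldha counts of 53805531 in library 2 and 1147 of 56868559 in library 3. With the acinar level as a covariate the log2 fold change was 0.35 ± 0.17 (SE; edgeR adjusted p = 0.95), and without insB:9-23 library 3 it was 0.36. The processed pseudogenes Ldha-ps and Ldha-ps2, which could share reads with Ldha, held at most 12 counts in any library. Pseudogenes were looked up by name only, and reads shared with other copies were not tested.

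Slc16a1, the transporter of lactate and pyruvate, was read from 60 to 150 counts a library. It stood at 1.16, 2.67 and 2.32 CPM in insB:9-23 libraries 1 to 3, against 2.12, 0.962 and 1.27 CPM in vehicle libraries 1 to 3. The groups overlapped over most of their range, with a log2 fold change of 0.49 ± 0.44 (SE; edgeR adjusted p = 0.91). With 1 library left out it ran from 0.26, without insB:9-23 library 2, to 0.87, without vehicle library 1. Its relatives Slc16a3, the exporter of glycolytic tissues, and Slc16a7, a high-affinity carrier, had edgeR adjusted p-values of 0.96 and 0.98. Slc16a3 was lower still than Slc16a1, at 0.273, 0.213 and 0.219 CPM in insB:9-23 libraries and 0.317, 0.128 and 0.131 CPM in vehicle libraries.

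Of 23 genes of lactate and pyruvate handling, all tested, edgeR called 0, with 13 log2 fold changes above 0 and 10 below, and a median of 0.02. In this list 1 gene had an unadjusted edgeR p under 0.05, beside 5.55% of all genes. DESeq2 and limma-voom called 0 of them. The 1 gene was Emb, embigin, a partner protein of monocarboxylate transporters. It stood at 183, 202 and 203 CPM in the insB:9-23 libraries, against 227, 254 and 219 CPM in the vehicle libraries, with no overlap (log2 fold change -0.25 ± 0.08, SE; edgeR adjusted p = 0.88). Ldhb averaged 12.4 ± 2.65 CPM in the insB:9-23 group and 10.8 ± 0.633 CPM in the vehicle group (SD, n = 3 each). Mpc2, a subunit of the mitochondrial pyruvate carrier, averaged 12.4 ± 4.19 and 8.25 ± 0.552 CPM in the same groups, and Pdk4, a kinase that switches off pyruvate dehydrogenase, 38.6 ± 3.39 and 34.4 ± 0.748 CPM. Neither passed the test, although their groups did not overlap. The groups did not overlap in 5 of the 23 genes, 3 higher and 2 lower in the insB:9-23 group, beside 13.5% of all genes.

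Slc16a10, an aromatic amino acid carrier of the same transporter family, was uneven within the insB:9-23 group. It stood at 284, 82.5 and 71.9 CPM in insB:9-23 libraries 1 to 3, against 303, 301 and 296 CPM in vehicle libraries 1 to 3 (log2 fold change -1.04 ± 0.55, SE; edgeR adjusted p = 0.88). Libraries 2 and 3 of the insB:9-23 group were far below the rest, and library 1 was close to the vehicle level. Without insB:9-23 library 1 the gene passed the edgeR test, at -1.95 ± 0.09 (SE; adjusted p = 0.011). That fit drops the insB:9-23 library that stood near the vehicle level, so the call cannot show a difference of the whole group. In the same fit 25 of 17696 genes were called.

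Since Ldha is a known target of hypoxia-inducible factors, 16 hypoxia-responsive genes were read beside it. EdgeR and limma-voom called 0 of 16 and DESeq2 called 1, Ddit4, beside 0.685% of all genes it tested. There were 10 log2 fold changes above 0 and 6 below, a median of 0.07, and 2 genes at an unadjusted edgeR p under 0.05, beside 5.55% of all genes, both with a fold above 0. Ddit4, an inhibitor of mTORC1, stood at 60.5, 64.2 and 64.1 CPM in insB:9-23 libraries, against 38.9, 43.2 and 43.2 CPM in vehicle libraries. The groups lay well apart, with a log2 fold change of 0.59 ± 0.07 (SE; edgeR adjusted p = 0.15), and DESeq2 called it (adjusted p = 4.5e-07). Ndrg1, a stress-responsive gene, averaged 162 ± 10.2 CPM in the insB:9-23 group and 141 ± 3.48 CPM in the vehicle group (SD, n = 3 each; edgeR adjusted p = 0.88). Hk2, a hexokinase, averaged 2.18 ± 0.247 and 1.51 ± 0.203 CPM in the same groups, and Car9, a carbonic anhydrase, 1.14 ± 0.483 and 0.682 ± 0.294 CPM, and neither passed the edgeR test.

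Oat, Acot7 and Mgst1 are enzymes of metabolism and detoxification. Oat, the mitochondrial ornithine aminotransferase, stood at 12.3, 16.7 and 15.7 CPM in insB:9-23 libraries 1 to 3, against 12.8, 11.8 and 13.5 CPM in vehicle libraries 1 to 3. Libraries 2 and 3 of the insB:9-23 group lay above all vehicle libraries and library 1 lay among them (log2 fold change 0.23 ± 0.14, SE; edgeR adjusted p = 0.88). Without insB:9-23 library 1 the log2 fold change was 0.35, and without library 2 of that group it was 0.14. Acot7, a cytosolic acyl-CoA thioesterase, stood at 1.67, 3.42 and 3.45 CPM in the insB:9-23 libraries, against 2.45, 2.58 and 2.38 CPM in the vehicle libraries. Library 1 of the insB:9-23 group was thus below every vehicle library and libraries 2 and 3 were above them, with a log2 fold change of 0.20 ± 0.32 (SE; edgeR adjusted p = 0.94). It was 0.48 without insB:9-23 library 1 and 0.04 without library 3 of that group. Mgst1, a microsomal glutathione transferase, stood at 2.31, 2.49 and 3.67 CPM in the insB:9-23 libraries, against 1.995, 2.48 and 1.84 CPM in the vehicle libraries. Its log2 fold change was 0.42 ± 0.26 (SE; edgeR adjusted p = 0.88) and 0.14 ± 0.29 (SE) with the acinar level as a covariate, and 0.19 without insB:9-23 library 3. Its highest value again came from insB:9-23 library 3, the library with the largest acinar share.

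Pdgfra, Igfbp4 and Cxcl12 are typical of stromal cells. Pdgfra, a receptor for platelet-derived growth factors and a mark of fibroblasts, stood at 0.990, 2.13 and 0.262 CPM in insB:9-23 libraries 1 to 3, against 1.84, 1.38 and 2.46 CPM in vehicle libraries 1 to 3. These are 58, 120 and 12 counts in the insB:9-23 libraries and 116, 86 and 131 counts in the vehicle libraries. The lowest value was that of insB:9-23 library 3, and the log2 fold change was -0.74 ± 0.71 (SE; edgeR adjusted p = 0.91) with all libraries, -0.27 without that one and -1.58 without insB:9-23 library 2. The 10 fibroblast and stellate markers summed to 98.6, 121 and 59.3 CPM in the insB:9-23 libraries and 111, 75.9 and 98.8 CPM in the vehicle libraries, so the same library was lowest in both. Pdgfrb, the receptor of pericytes, stood at 16.5, 15.1 and 11.7 CPM in the insB:9-23 libraries and 14.5, 16.7 and 12.7 CPM in the vehicle libraries, and Pdgfa, a ligand of the pair, had an edgeR adjusted p of 0.98.

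Igfbp4, a secreted binding protein of insulin-like growth factors, stood at 6.32, 6.12 and 3.93 CPM in insB:9-23 libraries 1 to 3, against 6.00, 4.01 and 2.85 CPM in vehicle libraries 1 to 3. The groups overlapped, with a log2 fold change of 0.35 ± 0.33 (SE; edgeR adjusted p = 0.91). It was 0.12 without vehicle library 3 and 0.67 without vehicle library 1. With the acinar level as a covariate it was 0.81 ± 0.32 (SE; edgeR adjusted p = 0.95).

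Cxcl12, a chemokine that holds leukocytes and progenitors in place, stood at 1.67, 8.56 and 6.31 CPM in insB:9-23 libraries 1 to 3, against 6.92, 5.79 and 5.10 CPM in vehicle libraries 1 to 3. The insB:9-23 group held both the lowest value, in library 1, and the highest, in library 2. The log2 fold change was -0.11 ± 0.57 (SE; edgeR adjusted p = 0.99) and took the opposite sign, 0.33 and 0.02, without insB:9-23 library 1 or vehicle library 1. Its receptor Cxcr4 stood at 4.23, 7.20 and 3.02 CPM in the insB:9-23 libraries and 4.00, 2.88 and 3.88 CPM in the vehicle libraries. Its highest value was in insB:9-23 library 2, the library with the most lymphocyte marker RNA.

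Maf and Smad3 act in the nucleus. Maf encodes c-MAF, a relative of the beta cell factor Mafa, and stood at 1.43, 2.22 and 0.699 CPM in insB:9-23 libraries 1 to 3, against 0.649, 0.224 and 1.05 CPM in vehicle libraries 1 to 3. These rest on 14 to 125 counts, and the groups overlapped. Its log2 fold change, 1.18 ± 0.68 (SE; edgeR adjusted p = 0.88), was the largest of the 10, with an SE exceeded only by that of Pdgfra. With 1 library left out it ran from 0.74, without insB:9-23 library 2, to 1.73, without vehicle library 3. The macrophage markers, a cell type known to use Maf, summed to 116, 171 and 84.9 CPM in the insB:9-23 libraries and 86.5, 107 and 116 CPM in the vehicle libraries. In the insB:9-23 group the order of the libraries was the same for Maf and for that sum, and in the vehicle group it was not. The fibroblast, pericyte and lymphocyte sums had that same order in the insB:9-23 group, so it was not particular to macrophages. Which cells the Maf reads came from was not tested.

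Smad3, which carries signals of TGF-beta receptors to the nucleus, stood at 7.58, 8.06 and 2.62 CPM in insB:9-23 libraries 1 to 3, against 7.95, 8.69 and 7.89 CPM in vehicle libraries 1 to 3. The other 5 libraries lay close together at 7.58 to 8.69 CPM, and insB:9-23 library 3 was far below them. The log2 fold change was -0.42 ± 0.42 (SE; edgeR adjusted p = 0.91), -0.06 without that library, -0.68 without insB:9-23 library 2, and 0.12 ± 0.28 with the acinar level as a covariate. Of 39 tested relatives and partners of the 10 genes, edgeR, DESeq2 and limma-voom called 0, and 0 had an unadjusted edgeR p under 0.05, with 17 log2 fold changes above 0, 22 below and a median of -0.04. The smallest p-value was that of Tgfbr1, a TGF-beta receptor, at 41.8 ± 5.21 CPM in the insB:9-23 group and 50.4 ± 6.26 CPM in the vehicle group (SD, n = 3 each; edgeR adjusted p = 0.88). Igfbp5, a relative of Igfbp4, averaged 22.9 ± 3.45 CPM in the insB:9-23 group and 27.4 ± 3.35 CPM in the vehicle group, and Aldh18a1, which makes proline and ornithine precursors, 88.5 ± 9.28 and 98.8 ± 3.61 CPM in the same groups. Gstp1, a cytosolic glutathione transferase, averaged 83.8 ± 25.5 CPM in the insB:9-23 group and 64.1 ± 4.57 CPM in the vehicle group. The groups overlapped in all 39 relatives.

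**Figure D3:**
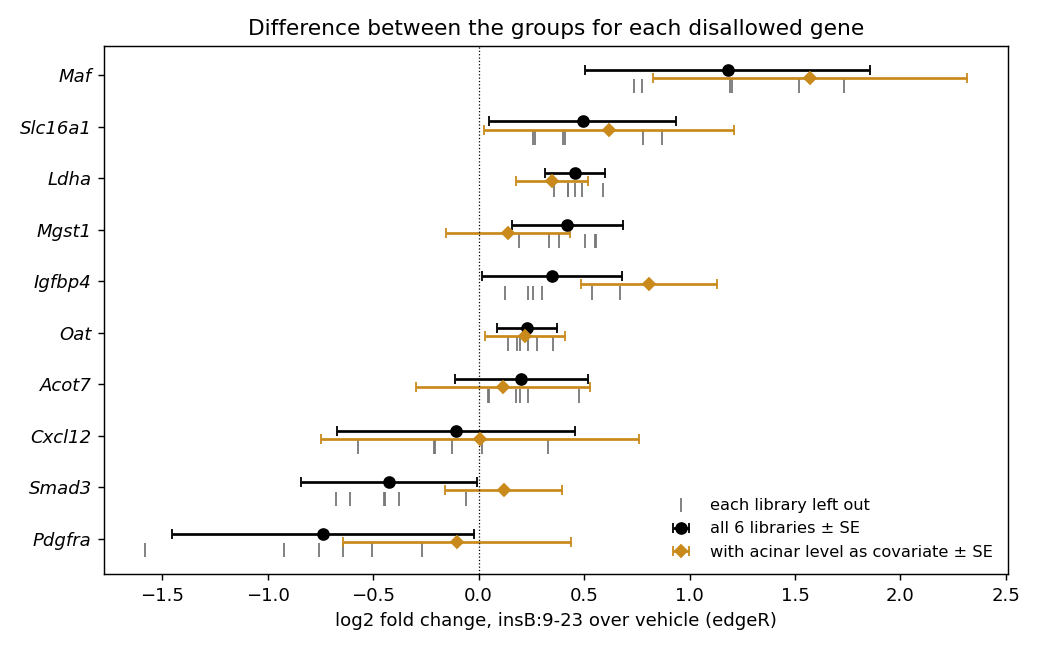
Log2 fold change of insB:9-23 over vehicle for each disallowed gene from edgeR with its SE, with all 6 libraries (black), with the acinar level as a covariate (gold), and with each library left out in turn (ticks). Ldha stays between 0.36 and 0.59 when a library is left out, whereas Cxcl12 runs from -0.57 to 0.33.

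Most of the disallowed genes varied more between libraries of 1 group than the median gene of like level. The pooled within-group SD of log2 CPM was 1.04 for Pdgfra, 0.92 for Maf, 0.89 for Cxcl12 and 0.64 for Smad3. The medians of genes within 0.5 log2 units of their level were 0.47, 0.54, 0.28 and 0.25. Slc16a1 (0.59 against 0.42), Igfbp4 (0.46 against 0.28) and Acot7 (0.42 against 0.34) also exceeded such genes. Ldha (0.18 against 0.17), Oat (0.18 against 0.19) and Mgst1 (0.30 against 0.35) varied about as much as such genes do.

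**Figure D4:**
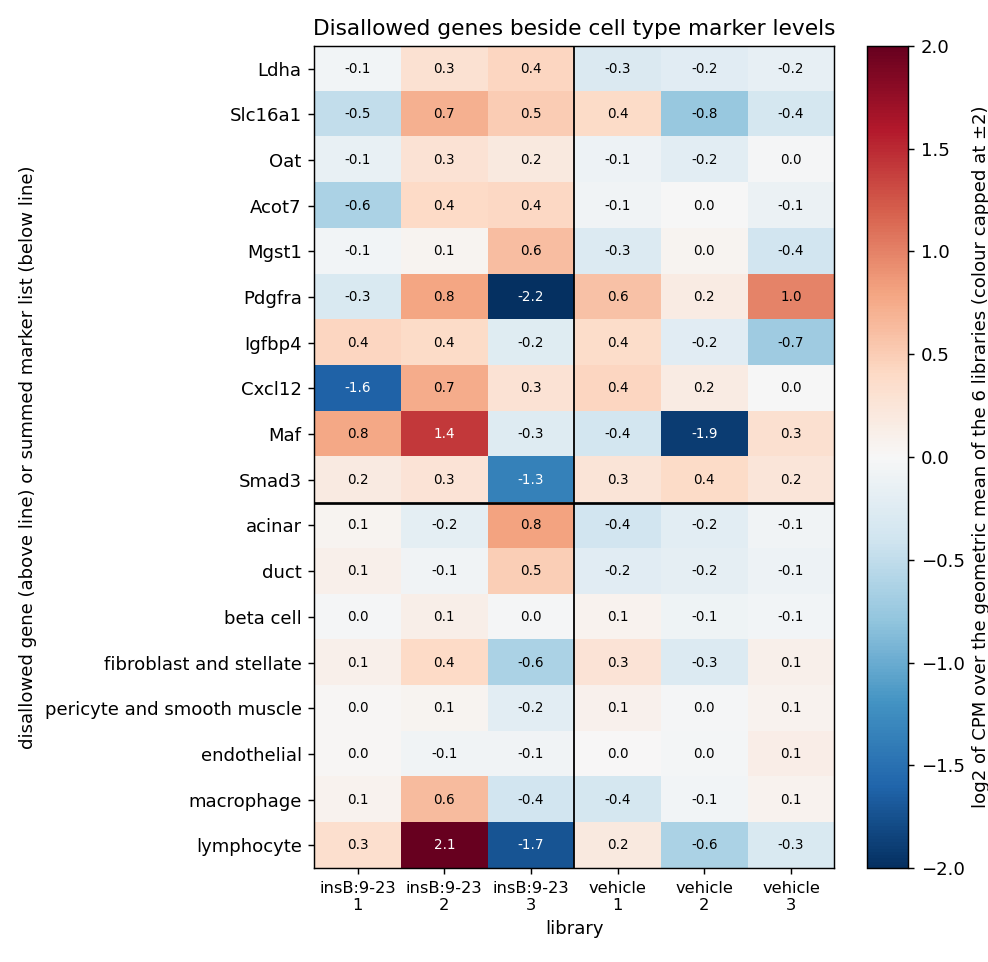
Log2 of CPM over the geometric mean of the 6 libraries for each disallowed gene and for summed cell type markers, insB:9-23 libraries left and vehicle libraries right, with colour capped at 2 in each direction. In insB:9-23 library 3, Pdgfra and Smad3 are lowest, as are the fibroblast and lymphocyte sums, and the acinar and duct sums are highest.

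The genes with the closest profile over the 6 libraries were taken from 200 genes of the marker and pathway lists, by the root mean square difference of centred log2 CPM. Ldha was closest to Cat, encoding catalase (0.12), and Tgm2, a transglutaminase (0.14). Mgst1 was closest to Cela1, an acinar elastase (0.14), and Cat (0.15). Smad3 was closest to Ackr3, a scavenging receptor for Cxcl12 (0.16), and Lum, a fibroblast proteoglycan (0.23). Cxcl12 had Acot2 (0.26) and Garem1 (0.27) nearest, Acot7 had Vegfa (0.18) and Rest (0.21), and Igfbp4 had Spp1 (0.27) and Gpd2 (0.30). The nearest profiles of Slc16a1 (Rnase1, 0.29, and Lmo4, 0.33), Pdgfra (Jchain, 0.37, and Ackr3, 0.57) and Maf (Dcn, 0.53, and Postn, 0.57) had larger differences on this scale, which grows with a gene's own variation. Oat varied too little between libraries for this measure.

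A further 13 genes described as repressed in beta cells were all tested and 0 were called by edgeR, DESeq2 or limma-voom. Of these 10 had a log2 fold change above 0 and 3 below, where 51.5% of all genes were above 0. Their median was 0.34, against 0.01 over all genes, and 3 had an unadjusted edgeR p under 0.05, beside 5.55% of all genes. This list was chosen with earlier results of these data known, and no test was made of it. The groups did not overlap in 5 of 13, against 13.5% of all genes. Cat stood at 15.01, 14.8 and 19.9 CPM in the insB:9-23 libraries, against 12.2, 12.5 and 12.8 CPM in the vehicle libraries, highest in insB:9-23 library 3. Nfib, a transcription factor, averaged 10.9 ± 1.91 CPM in the insB:9-23 group and 8.03 ± 0.509 CPM in the vehicle group, and Tgm2 averaged 11.2 ± 1.49 and 8.78 ± 0.687 CPM in the same groups (SD, n = 3 each; all 3 genes with an edgeR adjusted p of 0.88). With the acinar level as a covariate their log2 fold changes were 0.19 ± 0.12 for Cat, 0.32 ± 0.21 for Nfib and 0.40 ± 0.18 for Tgm2 (SE), against 0.40 ± 0.14, 0.44 ± 0.17 and 0.35 ± 0.14 without it. Zyx, a focal adhesion protein, averaged 7.49 ± 0.649 CPM in the insB:9-23 group and 8.93 ± 0.0969 CPM in the vehicle group without overlap (edgeR adjusted p = 0.88). Hk1, the hexokinase of most tissues, stood at 7.92, 8.41 and 8.65 CPM in the insB:9-23 libraries and 8.11, 8.96 and 8.83 CPM in the vehicle libraries. Rest, a repressor of neuronal and islet genes, stood at 1.81, 3.17 and 4.06 CPM in the insB:9-23 libraries and 2.31, 2.45 and 3.35 CPM in the vehicle libraries. Arhgdib, a leukocyte gene chosen after its values were seen, stood at 3.65, 15.8 and 1.07 CPM in the insB:9-23 libraries and 2.88, 2.15 and 2.75 CPM in the vehicle libraries, and was thus highest and lowest in the same libraries as the lymphocyte markers.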

How the data were processed

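Each library has 1 deposited table of raw counts by Ensembl gene, per the file headers. GRCm38, featureCounts 1.5.0-p3, HISAT and DESeq 1.8.3 appear in the submitters' processing notes, with no role given. The library kit is stranded per the labels, and the strand setting of the counting is not given in the sources used here. Genes that share exons with the 10 had 0 counts. Symbols came from GENCODE M21 (55240 of 55421 IDs). The test was that of edgeR 4.0.16 (R 4.3.3): filterByExpr, TMM scaling, robust quasi-likelihood F test, Benjamini-Hochberg adjustment over 17016 genes, threshold 0.05. SE is the fold change over the root of F. Exon length is the union of annotated exons. Spread used log2(CPM + 0.05). Alternatives used DESeq2 1.42.0, limma 3.58.1 (voom), other scalings and filters, the replicate number as a block, an acinar covariate and each library left out. The edgeR step was tested on simulated counts. Libraries of a group differed by far more than sampling noise.

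Members and lists were chosen with earlier results of these data known. Every member is named. Of each pathway list, called genes or the 4 smallest p-values are named, with fixed relatives, of which 1 is not reported here. For likeness, the 2 closest genes were taken for members whose highest library exceeded 1.5 times their lowest, among genes with a mean of at least 1 CPM. The acinar covariate is the log2 share of counts in the acinar list. Depth limits cover counting error only.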

Additional observations from a re-analysis of the deposited data

How the results depend on the processing

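Under each of 15 alternatives, 0 disallowed genes and 0 of the other disallowed genes were called, and the median log2 fold change of the 10 stayed between 0.15 and 0.41. Of 149 single-gene values, 145 kept their sign and 4 reversed. With the acinar level as a covariate Smad3 was at 0.118 and Cxcl12 at 0.00648. Leaving out 1 library at a time gave Cxcl12 log2 fold changes of -0.574 to 0.329, with reversals without insB:9-23 replicate 1 and without vehicle replicate 1 (0.0176). The cause was not tested. Maf did not reach the stricter filter, which asks for 1 CPM in every library of a group. Ldha had an unadjusted edgeR p under 0.05 in the fit with all libraries but not with library totals alone, with the acinar covariate, or without vehicle replicate 1, insB:9-23 replicate 2 or insB:9-23 replicate 3. Library totals alone moved the median log2 fold change of all genes to -0.145, and that of the 10 to 0.15.

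Over all genes the count called was 116 with DESeq2, 7 with the acinar covariate, and 16 to 26 with 1 library left out (23 without vehicle replicate 1, 25 and 26 without insB:9-23 replicates 1 and 3). With the replicate block it was 0 with edgeR, beside 605 genes at an unadjusted p under 0.05. Libraries with the same number did not deviate together (correlations of -0.035, -0.065 and -0.023), so the number was not taken as a pairing. The lactate and pyruvate list ranged from 0 to 1 called with 1 library left out. The 1 was Slc16a10, in the fit without insB:9-23 replicate 1, where it stood near the vehicle level. A count of 3 equals up to 0.0655 CPM, so depth limits Pdgfra and Maf the most.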
